A study of Homo sapiens with 9 samples.

Results

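The CYP3A gene cluster domain is a stretch of human chromosome 7 that holds the 4 functional CYP3A genes, CYP3A5, CYP3A7, CYP3A4 and CYP3A43. It was examined in Hi-C libraries, which record how often 2 pieces of DNA are ligated together inside the nucleus and so how often they lie close to each other. The members are 4 genes named CYP3A by the GENCODE annotation in this interval, leaving out the read-through gene CYP3A7-CYP3A51P and the pseudogenes. The window examined holds 79 protein-coding genes, of 20098 on the autosomes and the X chromosome. In hg19 coordinates the genes lie in 6 consecutive 40 kb bins (chr7:99240001-99480000), called the CYP3A bins below. These bins are part of a core of 12 bins (chr7:99040001-99520000), within a window of 65 bins (chr7:98000001-100600000) of the 77404 bins in the genome. The core was taken because the study lists this domain among those whose contacts differ most between growing and senescent cells, in these same libraries. The differences between growing and senescent libraries at the locus, of contact, insulation and compartment alike, are therefore a description of a chosen place and carry no test.

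The cells were IMR90, a line of human lung fibroblasts, which had been stably infected with ER:HRAS(G12V), an oncogenic HRAS fused to the oestrogen receptor so that tamoxifen switches it on. The control group was 3 libraries of growing cells (growing 1, 2 and 3), which carry the same construct without tamoxifen. The vector of growing 3 is labelled with MSCV as well. The senescent group was 2 libraries (RIS 1 and RIS 2) of cells given 100 nM 4-hydroxytamoxifen for 6 days to enter RAS-induced senescence (RIS). All libraries carry the fusion, so they compare tamoxifen-activated RAS with the uninduced fusion in 1 cell line. The labels give no source for each replicate beyond its number, so the SDs cover only the spread between these libraries, which may in part be technical. RNA was not measured in these libraries, and neither CYP3A transcripts nor markers of cell type could be examined.

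CYP3A enzymes are cytochrome P450 monooxygenases of the endoplasmic reticulum that oxidise steroids and a large share of medicines. CYP3A4 is the main form of adult liver and gut, CYP3A7 is the fetal form, CYP3A5 is present or absent according to a common splice allele, and CYP3A43 is a minor form. The genes arose by duplication and are active mainly in liver and intestine, where the pregnane X receptor PXR (NR1I2), with its partner RXR, switches them on through paired hormone-response half-sites. In Hi-C maps, active gene-rich chromatin (compartment A) meets mostly other A regions and silent chromatin (compartment B) other B regions, while topologically associating domains are stretches that meet themselves more than their neighbours.

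CYP3A5 (ENSG00000106258) lies at chr7:99245817-99277619 on the minus strand and fits within 1 bin. CYP3A7 (ENSG00000160870, chr7:99302659-99332819) and CYP3A4 (ENSG00000160868, chr7:99354583-99381871), both on the minus strand, overlap 2 bins each and share the one that starts at 99320001. CYP3A43 (ENSG00000021461, chr7:99425636-99463716) is on the plus strand and overlaps 2 bins. Bins are shared with the pseudogenes CYP3A51P, CYP3A137P and CYP3A52P, with the read-through gene CYP3A7-CYP3A51P, with the olfactory receptor gene OR2AE1 and with the end of TRIM4, and reads from near-identical copies cannot be assigned with certainty, so values of the 4 genes are those of their bins and are not independent of each other.

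The promoters of the members were compared with each other and searched for a PXR element. The PXR element of the ER6 type, TGAACT followed after 6 bases of any kind by AGGTCA, was searched on both strands of the 300 bases around each start (250 before, 50 after) in the RefSeq promoter table, whose coordinates are GRCh38.p14 and not those of the Hi-C bins. The stretch that best matches is shown 5′ to 3′ on the strand of the gene, with the 12 letters that the element defines in capitals, matching or not.
CYP3A5: agaacaTGAACTcaaaagAGGTCAgcaaag
CYP3A7: agaataTTAACTcaatggAGGTCAgtgagt
CYP3A4: agaataTGAACTcaaaggAGGTCAgtgagt
CYP3A43: agaataGGAAATcaaaggAGGCCAaaataa

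CYP3A4 and CYP3A5 held the element with 0 mismatches, CYP3A7 with 1 and CYP3A43 with 3 of the 12 letters. The element starts 169 bases before the transcription start in CYP3A4, 168 in CYP3A7, 177 in CYP3A43 and 113 in CYP3A5. Of 35116 promoters, 3 (0.00854%) held an exact match, those of CYP3A4, CYP3A5 and ITGB1BP2. The 12 letters searched are those of the CYP3A4 element itself, so its match was given in advance and the share is no test. The CYP3A4 and CYP3A7 promoters were 93.7% identical over 301 aligned positions, whereas the other pairs of members had between 54.5% and 65.8% identity. Promoters of unrelated genes were not aligned beside them. A match is a description of the letters only and says nothing of binding in these cells.

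The 5 libraries held between 109967509 (RIS 1) and 180775315 (growing 3) contacts, recovered from the deposited balanced values. Contact was expressed as log2 of the balanced value summed over a set of bin pairs, divided by the value expected on chromosome 7 at the same distances, so that 0 is the average at that distance and each unit is a doubling. The diagonal was left out. Of the window's bins, 62 had data in every library.

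The CYP3A bins met each other more often in RIS than in growing cells. Their self-contact over 15 bin pairs was 0.50, 0.44 and 0.43 in growing 1, 2 and 3 and 0.83 and 0.82 in RIS 1 and 2. The groups did not overlap, and the means were 0.46 ± 0.04 (SD, n = 3) and 0.83 ± 0.01 (SD, n = 2). The difference of 0.37 amounts to 1.29 times more contact, and it rests on 2801 to 3875 contacts per library. In these bulk samples, a contact made by more cells and a contact made more often in each cell cannot be told apart. Groups that do not overlap in this direction were also found at 31.6% of 63428 blocks of the same shape on the autosomes, where the median change was -0.01.

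Self-contact of the whole core was also higher in RIS, though less so in its zinc finger side (0.49, 0.56 and 0.51 in growing 1, 2 and 3 and 0.75 and 0.59 in RIS 1 and 2) than among the CYP3A bins. Over the core's 66 pairs the 2 RIS libraries had 0.62 and 0.57 and the growing ones 0.31, 0.31 and 0.26, and the difference between means was 0.30. Neither RIS library came near the growing values, and 38.2% of 12-bin blocks on the autosomes also had groups that did not overlap in that direction. Taken pair by pair, 34 of the 66 pairs in the core were higher in both RIS libraries than in any growing one and 7 were lower (15% and 19.5% of all autosomal pairs at these distances). Among the 15 pairs of CYP3A bins 15 were higher and 0 lower, beside 16.2% and 21.9% of pairs at their distances.

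**Figure D1:**
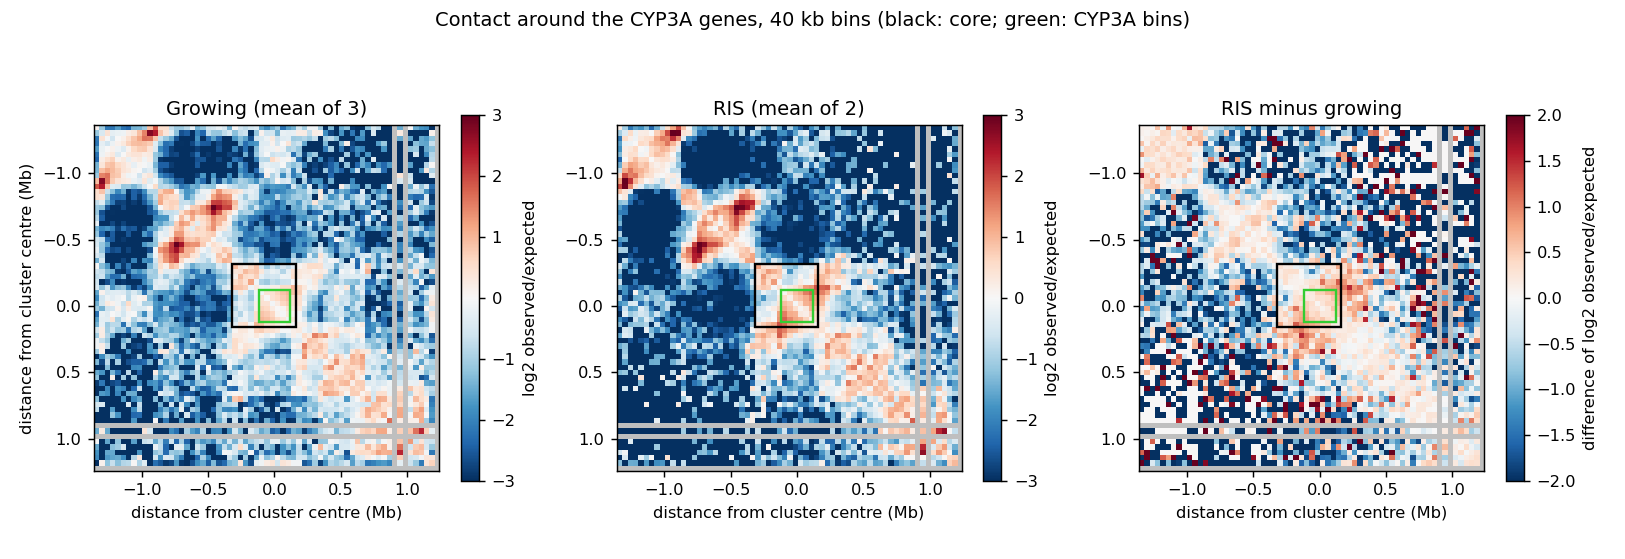
Contact in the 2.6 Mb window in 40 kb bins, as log2 observed over expected, for the mean of the 3 growing libraries, the mean of the 2 RIS libraries and their difference; both axes give distance from the centre of the CYP3A bins in Mb, grey lines are bins without data, and pairs with no contact in a group are drawn at the end of the colour scale. The green square (CYP3A bins) rose by 0.37, and the blue fields that link it to the left of the window deepened in RIS.

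Within the cluster the difference was larger for pairs that lie farther apart. Neighbouring bins (40 kb) differed by 0.27 between the group means, pairs 80 kb apart by 0.43, pairs 120 kb apart by 0.42, pairs 160 kb apart by 0.61, and the single pair 200 kb apart by 0.77. That last pair joins the bin of CYP3A5 to the last bin of CYP3A43, the outermost members. It held 86, 124 and 129 contacts in growing 1, 2 and 3 and 120 and 182 in RIS, and its log2 contact was 0.75, 1.08 and 1.14 against 1.69 and 1.84. The 5 distances share bins and are not independent, and no trend was tested.

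By gene, CYP3A5 had the highest contact with the CYP3A bins in RIS, over the 5 pairs of its single bin with the others, 0.98 ± 0.02 (SD, n = 2) against 0.56 ± 0.06 (SD, n = 3) in growing cells. The other genes overlap 2 bins each, and their values are over 9 pairs that include the pair of their own bins. CYP3A43 followed at 0.92 ± 0.01 against 0.50 ± 0.07. CYP3A7 reached 0.82 ± 0.01 against 0.49 ± 0.06, and CYP3A4 0.77 ± 0.03 against 0.41 ± 0.04. In growing cells CYP3A4 was the lowest in each library (0.45, 0.41 and 0.38 in growing 1, 2 and 3). The order of CYP3A5, CYP3A43 and CYP3A7 changed from library to library and is not resolved. In RIS the values of the genes did not overlap, with the outer pair above the inner pair, but there are only 2 libraries and the genes share bins.

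Contact between members also depended on which 2 genes were taken. CYP3A5 with CYP3A43 had 0.84, 0.91 and 1.03 before induction (growing 1, 2 and 3) against 1.63 and 1.66 in RIS 1 and 2, a difference of 0.72 or 1.64 times. CYP3A5 with CYP3A4 differed by 0.47, CYP3A7 with CYP3A43 by 0.44 and CYP3A4 with CYP3A43 by 0.38. The closest couples changed least, with 0.28 for CYP3A5 with CYP3A7 and 0.29 for CYP3A7 with CYP3A4, the latter of which share a bin.

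To the left of the cluster the core holds a zinc finger side of 5 bins (chr7:99040001-99240000), with the transcription factor genes ZNF789, ZNF394, ZKSCAN5, ZNF655 and ZSCAN25, the pre-mRNA 3′ processing factor CPSF4 and the ATP synthase subunit gene ATP5MF. Contact of the CYP3A bins with this side was -0.24, -0.22 and -0.40 in growing cells and -0.06 and -0.11 in RIS, a difference of 0.20. The groups did not overlap, as at 31% of blocks of this shape (34.7% in the other direction), but the gap between growing 2 and RIS 2 was small. The members differed here. CYP3A43, the farthest from the side, moved from -0.13 ± 0.10 to 0.39 ± 0.01 and CYP3A4 from -0.31 ± 0.09 to -0.03 ± 0.14, while the groups overlapped for CYP3A7 (-0.43 ± 0.11 and -0.35 ± 0.05) and for CYP3A5 (-0.22 ± 0.12 and -0.27 ± 0.03). The last bin of the core, which holds most of the ubiquitin ligase gene TRIM4, met the CYP3A bins at 0.39, 0.32 and 0.37 in growing cells and at 0.81 in both RIS libraries.

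The left flank of the window (chr7:98000001-99040000) lost contact with the CYP3A bins. It was -1.73, -1.64 and -1.42 in growing 1, 2 and 3 and -2.60 and -2.54 in RIS 1 and 2. The difference between means fell by 0.97 on the log2 scale, that is 1.96 times less contact in RIS, over 156 bin pairs that held 411 to 556 contacts in growing and 159 and 216 in RIS libraries. No growing library came near the RIS values, and 35.4% of blocks of this shape on the autosomes had groups apart in that direction.

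The loss covered both kinds of chromatin in that flank. Its A and B parts were drawn from the compartment score (described below) of all 5 libraries together, so their character is not a separate finding. Its A part (chr7:98440001-99040000) has 12 genes, among them TRRAP, a scaffold of histone acetyltransferase complexes, SMURF1, a ubiquitin ligase of BMP signalling, and ARPC1A and ARPC1B, subunits of the actin-nucleating ARP2/3 complex. The CYP3A bins met it at -2.30, -2.29 and -2.09 in growing cells and at -3.10 and -3.27 in RIS. The B part (chr7:98040001-98440000) holds a single protein-coding gene, NPTX2, a neuronal pentraxin. There the values were -0.53, -0.41 and -0.18 in growing cells and -1.56 and -1.23 in RIS, and the differences between means were -0.96 for the A part and -1.02 for the B part. By gene, which share bins, the difference toward the A part was largest for CYP3A43 (-2.37 ± 0.21 to -3.66 ± 0.52) and smallest for CYP3A7 (-2.48 ± 0.19 to -3.13 ± 0.08). In RIS 1 and 2 these rest on only 22 and 19 contacts for CYP3A43 and 34 and 39 for CYP3A7, so the order of the genes is uncertain.

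**Figure D2:**
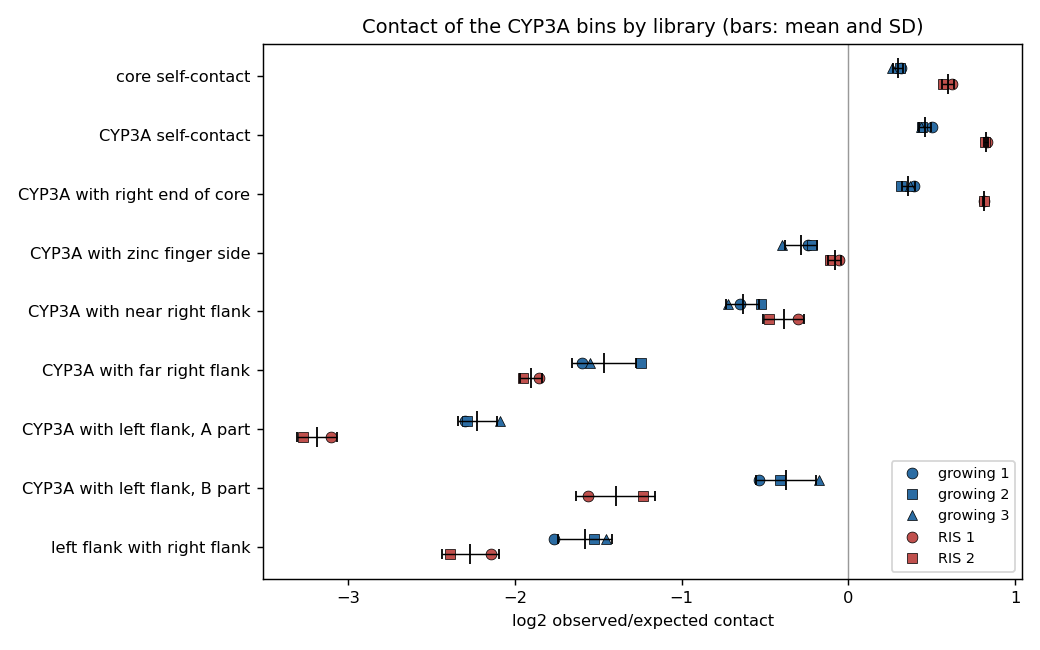
Contact of the CYP3A bins with themselves and with their surroundings in each library, as log2 observed over expected; symbols are libraries, bars give the group mean and SD (n = 3 growing, n = 2 RIS). RIS symbols lie to the right of the growing ones for contacts inside the core (0.83 against 0.46 for the CYP3A bins) and to the left for both parts of the left flank.

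The right flank (chr7:99520001-100600000) was split in its response. Over all 144 pairs with data the CYP3A bins had -0.82, -0.66 and -0.88 in growing cells and -0.54 and -0.70 in RIS, and the groups overlapped (they were apart at 36.2% of such blocks with higher and 34.8% with lower contact in RIS). The nearest 480 kb, which hold AZGP1, ZKSCAN1, the replication helicase gene MCM7 and the cohesin subunit gene STAG3 among 23 genes, had -0.65, -0.53 and -0.72 in growing and -0.30 and -0.47 in RIS, a difference of 0.24. Beyond them, over 600 kb that hold the erythropoietin gene EPO and the acetylcholinesterase gene ACHE, contact was lower in RIS, with -1.60, -1.24 and -1.55 against -1.86 and -1.95. CYP3A5, the member farthest from this flank, moved most toward the near part (-0.32 ± 0.13 to 0.24 ± 0.07), while the groups overlapped for CYP3A4 (-0.62 ± 0.13 and -0.34 ± 0.24) and for CYP3A43 (-0.80 ± 0.07 and -0.72 ± 0.03).

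Bin by bin, the CYP3A bins had lower contact in both RIS libraries than in any growing one at 18 of 26 bins of the left flank and higher contact at 0 of them, where 22.9% of comparisons at these offsets on the autosomes were lower. Counts in single left flank bins were low. The library with the fewest contacts held between 0 (bin that starts at 98400001) and 15 (at 99000001). In the right flank 5 of 24 bins were higher and 7 lower (19% and 24% on the autosomes). The 5 higher bins were the 5 nearest to the core, and the first 3 of the 7 lower ones start at 99720001, 99800001 and 99840001. Within the zinc finger side 2 of 5 bins were higher and 1 lower (22.5% and 29.3%). At the left edge of the core the bin just inside had -0.71, -0.62 and -0.82 in growing and -0.81 and -0.76 in RIS, and the bin just outside -1.84, -1.85 and -1.90 against -1.78 and -2.42. At the right edge the bin just inside and that just outside had similar levels, 0.39, 0.32 and 0.37 against 0.24, 0.30 and 0.20 in growing cells, and 0.81 in both against 0.71 and 0.62 in RIS. In the bin just outside the left edge RIS 1 was above every growing library and RIS 2 below. The groups also overlapped in the next bins outward, so the left flank bins nearest to the core did not separate. The differences between means were -0.23 there, -0.39 in the bin that starts at 98960001 and -1.09 in that at 98920001. At the right the higher contact ran past the core's edge.

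**Figure D3:**
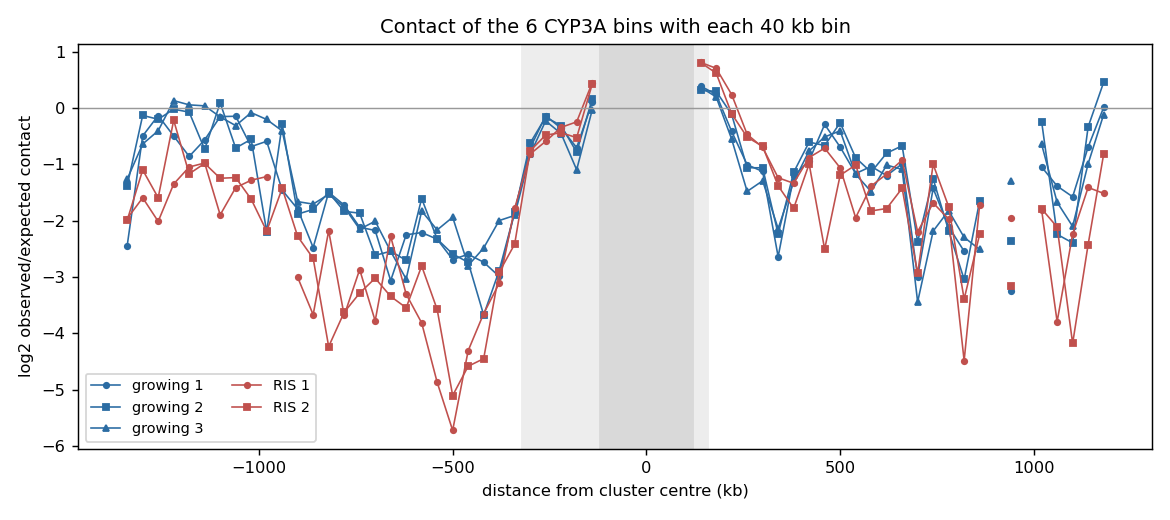
Contact of the 6 CYP3A bins with each 40 kb bin of the window in each library, as log2 observed over expected, against distance from the cluster centre in kb; dark grey marks the CYP3A bins, light grey the core, and gaps are bins without data or without contacts. The RIS lines run below the growing ones at 18 of the 26 left flank bins and above them over the first 5 bins of the right flank.

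The 2 flanks also met each other less. Contact between the left and the right flank, across the core, was -1.76, -1.53 and -1.45 in growing cells and -2.15 and -2.39 in RIS, a difference of -0.69, with groups apart as at 36.8% of such blocks (35.1% in the other direction). The zinc finger side followed the cluster, with -0.57 toward the left flank (-0.94 ± 0.05 to -1.51 ± 0.01) and 0.31 toward the right (-0.29 ± 0.10 to 0.02 ± 0.17). Self-contact rose by less in the left flank (0.12) and in the right flank (0.09) than in the core (0.30).

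Insulation was measured as contact across a bin edge, among bins within 520 kb on each side, in log2 over the chromosome mean, so that a low value marks a border. At the left edge of the core growing cells had -1.25, -1.27 and -1.23 and RIS cells -1.76 and -1.86. The border was thus deeper in RIS by 0.56, and 34.3% of edges on the autosomes had groups apart in this direction. It was a local minimum at that same edge in every library, with a depth relative to its surroundings (prominence) of 1.69 to 1.72 in growing and 2.29 and 2.38 in RIS. The other deep border of the window, 560 kb to its left and 1 bin inside the A part, was also deeper in RIS (-1.76 ± 0.06 to -2.39 ± 0.06).

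The right edge of the core was no local minimum in any library. Insulation there stood at -0.34, -0.34 and -0.43 (growing) and at -0.02 and -0.21 (RIS), so contact across it was higher in RIS by 0.25 (37% of edges were apart in that direction). A weak border lay 40 kb beyond it in the 3 growing libraries, with a prominence of 0.36 to 0.43. In RIS 2 the same border had a prominence of 0.17, and in RIS 1 none of at least 0.1 was found at this edge. A second weak border, 200 kb beyond the core edge, was present in every library, with a prominence of 0.15 to 0.21 in growing and 0.49 and 0.50 in RIS. Insulation at that second border overlapped between the groups, at -0.38, -0.34 and -0.41 in growing and -0.35 and -0.51 in RIS. Its prominence is relative to surroundings that include the first border, so these values do not show a deeper second border. Within the cluster itself, at its middle edge, which falls within CYP3A4, growing cells had -0.05, -0.08 and -0.11 and RIS cells 0.43 and 0.33. The data therefore describe a domain with a firm left border and a right side that is open toward AZGP1 and ZKSCAN1, more so in RIS.

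**Figure D4:**
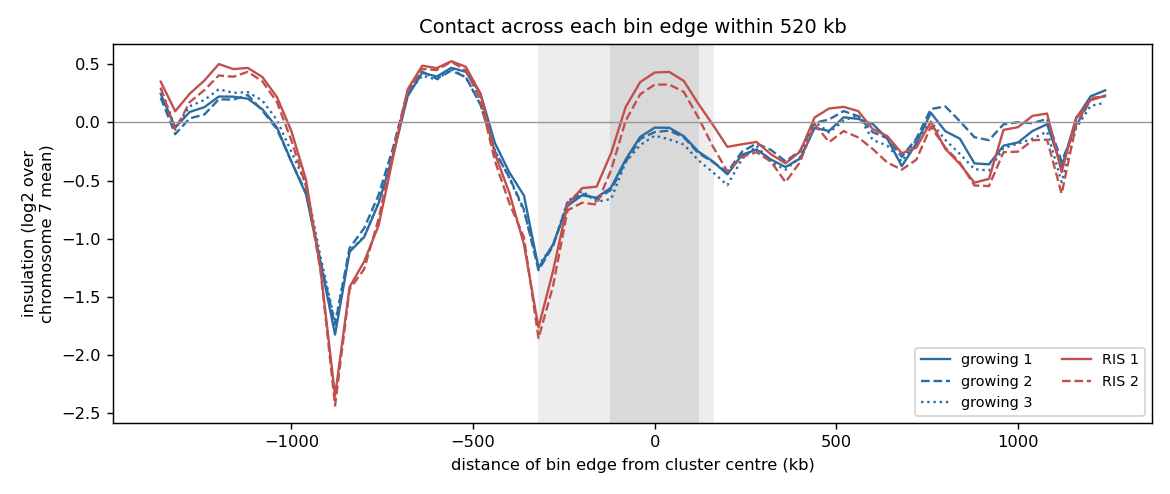
Insulation along the window in each library (log2 of contact across each bin edge within 520 kb, over the chromosome 7 mean) against distance from the cluster centre in kb; dark grey marks the CYP3A bins and light grey the core. At the left edge of the core the RIS lines reach -1.76 and -1.86 and the growing lines about -1.25, and over the CYP3A bins the RIS lines lie above the growing ones.

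The core motif of CTCF, the factor bound at many domain borders, was searched by its consensus on both strands of GRCh37. Of the 12 core bins 0 held a match, beside 7.05% of 67124 autosomal bins and 4 of the 26 bins of the left flank. The 4 bins around the left edge, the deep border of the domain, held 0 matches too. The nearest to the right are 2 matches between genes, past AZGP1 in the bin that starts 40 kb beyond the core edge and holds that gene, near the weak border of growing cells. They are shown on their own strand with the motif in capitals.
chr7:99577557-99577578 (plus strand): gctgCCAGCAGGGGGCAGcaga
chr7:99588668-99588689 (minus strand): ttgaCCACTAGGGGGCAGgcaa

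No match within the core says only that these letters are not there, since sites that differ from the consensus were not counted.

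The compartment of the CYP3A bins differed between the groups. The compartment score is the leading principal component of the map of chromosome 7 in 120 kb bins after correction for distance, scaled to an SD of 1 over chromosome 7, with positive values for A. Its mean over the 2 bins that hold the genes was -0.24, -0.39 and -0.40 in growing 1, 2 and 3 and 0.54 and 0.42 in RIS 1 and 2. It was thus below 0 in every growing library and above 0 in both RIS libraries, a pattern seen in 930 of 22072 autosomal bins (4.21%), or 8.11% of the bins below 0 in all growing libraries. Groups were apart at 32.1% of bins with a higher and 36.1% with a lower score in RIS. The neighbours did not cross 0. The nearest 480 kb to the left went from 1.12 ± 0.03 to 0.92 ± 0.02, those to the right from 0.75 ± 0.05 to 0.63 ± 0.02, and the 3 bins of 120 kb that lie within the B part of the left flank stayed below 0, with means of -1.24 to -0.86 in growing and of -0.65 to -0.28 in RIS. In growing cells the CYP3A bins were therefore a small island of weakly negative score between positive neighbours.

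A second measure, the A/B preference, is the log2 contact of a region with the fifth of bins of highest score on chromosome 7 minus that with the fifth of lowest score, over partners more than 2 Mb away. For the CYP3A bins it was -0.63, -0.96 and -0.80 in growing cells and 1.5 and 0.98 in RIS. The difference was 2.04, with groups apart as at 49.8% of 6-bin windows in this direction, and the median change over all such windows was 0.30. Contact with A partners went from -0.86 ± 0.13 to -0.49 ± 0.09 and contact with B partners from -0.06 ± 0.06 to -1.73 ± 0.28, so most of the change was in B contact. The counts behind it were 667 to 797 contacts with A and 1084 to 1438 with B in growing libraries, and 662 and 721 with A and 226 and 375 with B in RIS.

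The 4 genes were close to each other in this respect. In growing cells the A/B preference was -0.28 ± 0.25 for CYP3A5, -0.76 ± 0.22 for CYP3A7, -0.94 ± 0.31 for CYP3A4 and -0.96 ± 0.17 for CYP3A43. In RIS it was 1.90 ± 0.63, 1.36 ± 0.27, 1.16 ± 0.20 and 1.02 ± 0.51 in the same order. CYP3A5, next to the zinc finger genes, had the highest mean in both groups. CYP3A7 lay above CYP3A4, with which it shares a bin, in each library, while the place of CYP3A43 among these 3 changed from library to library. Their changes lay between 1.98 and 2.18.

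The compartment score of the nearest 480 kb on each side was lower in RIS, as given above. On chromosome 7 the A/B preference of the A-type neighbours nevertheless moved about as far as that of the cluster. The zinc finger side was higher in RIS by 1.99, the nearest 480 kb to the left by 2.03 and to the right by 1.71, and the B part of the left flank by 0.62, in each case with lower contact with distant B bins and no gain of contact with A. With partners on other autosomes the picture differed. There the preference of the CYP3A bins was 0.22, 0.16 and 0.01 in growing cells and 1.81 and 0.97 in RIS, a difference of 1.26, made of more contact with A (0.60) and less with B (-0.66). The B part of the left flank was higher too, from -1.53 ± 0.10 to -0.95 ± 0.09, also with more contact with A (0.23) and less with B (-0.34). How often groups are apart in this measure on the autosomes was not measured. The zinc finger side changed by 0.30, while the nearest 480 kb to the left had 3.82, 3.75 and 3.72 in growing 1, 2 and 3 and 3.70 and 2.96 in RIS 1 and 2, with RIS 1 next to the growing values, and to the right the groups overlapped (3.22 ± 0.21 and 2.94 ± 0.41). RIS 1 and RIS 2 were far apart for the CYP3A bins as well, and the difference between regions was not tested.

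**Figure D5:**
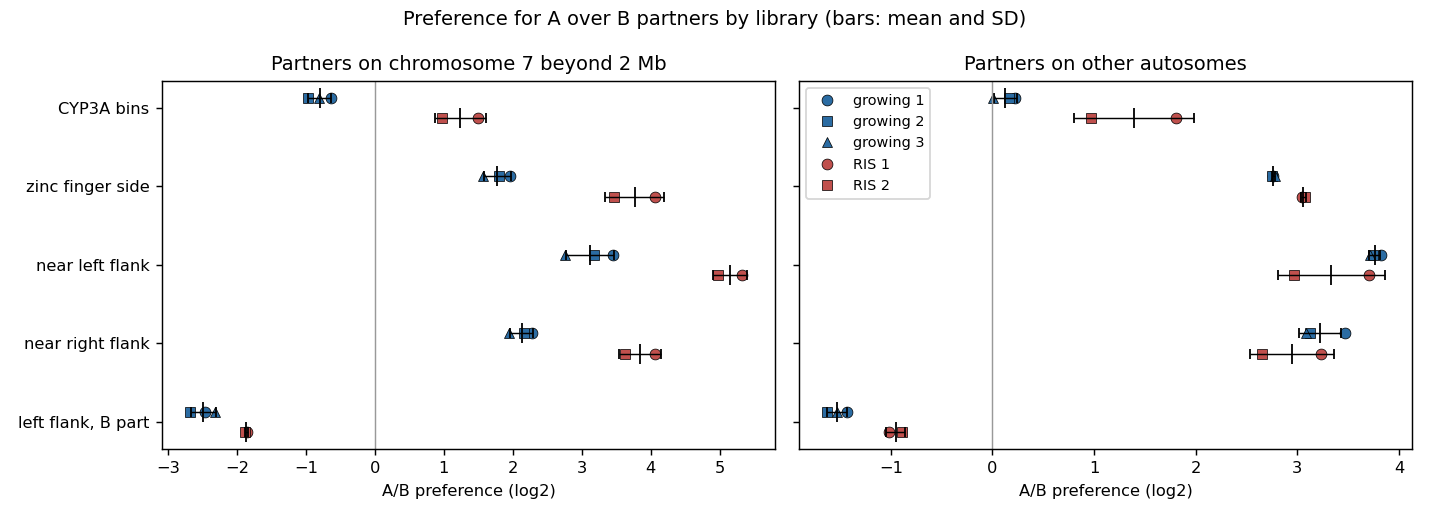
Preference for A over B partners (log2) of the CYP3A bins and their neighbours in each library, with partners on chromosome 7 beyond 2 Mb (left) and on other autosomes (right); symbols are libraries and bars the group mean and SD (n = 3 growing, n = 2 RIS). On chromosome 7 all 5 regions lie farther right in RIS, and on other autosomes the CYP3A bins move from between 0.01 and 0.22 to 0.97 and 1.81.

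Within each library the CYP3A bins preferred A less than the flanks did as 1 set, a comparison that did not enter the choice of the domain. Subtracting the A/B preference of both flanks from that of the CYP3A bins left -1.40, -1.57 and -1.48 for growing and -0.07 and -0.41 for RIS libraries, lower in 5 of 5 libraries (mean -0.99 ± 0.70, SD, n = 5; exact two-sided sign-flip test, p = 0.0625, the smallest that 5 libraries allow). Against the nearest 480 kb on each side the deficit came to -3.47, -3.61 and -3.14 (growing 1, 2 and 3) and to -3.18 and -3.32 (RIS 1 and 2). These values overlapped between the groups. Against the near right flank alone the groups were apart, with a mean of -2.93 ± 0.19 (SD, n = 3) in growing and -2.60 ± 0.07 (SD, n = 2) in RIS, and so they were against the A part of the left flank (-3.70 ± 0.25 and -3.04 ± 0.20). How often such differences are apart on the autosomes was not measured. For the A/B preference itself, groups were apart at 49.8% of 6-bin windows with higher and 34% with lower values in RIS. Against the left flank alone, which includes the B part, it was lower in the 3 growing libraries (-0.73, -0.89 and -0.86) and higher in RIS 1 (0.66) and RIS 2 (0.29) (exact two-sided sign-flip test, p = 0.438).

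Coverage of the CYP3A bins before balancing, relative to the median autosomal bin, was -0.17 ± 0.02 in growing and -0.08 in both RIS libraries on the log2 scale. Its part in the contact differences was not tested. Recovered contacts gave a difference of 0.37 for the self-contact as well, but their expected values carried the same balancing factors. That value therefore does not leave the balancing out. Growing 3 and RIS 2 had more duplicate reads than the other 3 libraries in the study's account of its reads. Among the other 3 the differences were 0.36 for the self-contact of the CYP3A bins, -0.91 with the left flank and 2.30 for the A/B preference, and between growing 3 and RIS 2 they were 0.38, -1.12 and 1.78.

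Across the genome a fit was made to 1959041 bin pairs within 2 Mb. limma on the balanced values called 2 of them at a 5% false discovery rate (0.000102%; 0 higher and 2 lower in RIS) and 0 of the 66 core pairs, of which 34 had an unadjusted p under 0.05 (11.6% of all pairs). voom weights each pair in each library by the spread predicted for its fitted count, on recovered contacts without balancing. It called 25307 pairs (1.29%), and 23 of the 66 core pairs, 23 higher (0.865% of all pairs) and 0 lower in RIS. The median difference of the CYP3A pairs was 0.54 by voom and 0.41 by limma. Coverage of the CYP3A bins before balancing was 0.08 higher in RIS, and its part in the voom calls was not tested. The called core pairs were 12 of 15 among the CYP3A bins, 5 of 6 of these bins with the TRIM4 bin, 3 of 30 with the zinc finger side, 2 of 5 between that side and the TRIM4 bin and 1 of 10 within the zinc finger side. Of the 24 pairs of CYP3A bins with the left flank that had enough contact to be fitted, voom called 0 (1 with an unadjusted p under 0.05) and limma 0 (2), with a median of -0.69 by limma. The voom count in the core was 9 without RIS 1 and 5 without RIS 2, where the lone RIS library is assumed to vary like the growing ones. Since the core was chosen on this contrast, nothing follows from its share of calls.

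The other gene clusters of drug metabolism were measured alike. Of 11 clusters (CYP2C, the CYP4 genes of chromosome 1, CYP2A with CYP2B and CYP2F, CYP4F, CYP1A, UGT1A, UGT2, ADH, GSTM, GSTA and SLCO1), 7 had a compartment score below 0 in all growing libraries and 0 of those 7 were above 0 in either RIS library. Of all 120 kb bins below 0 in every growing library 8.11% were above 0 in both RIS libraries, and a difference between these clusters and that share or CYP3A was not tested. CYP2C, which holds further drug-oxidising P450 genes, had a score of -1.71 ± 0.02 in growing and -1.74 ± 0.02 in RIS, and UGT2, a family of glucuronosyltransferases, -1.27 ± 0.11 and -1.46 ± 0.02. The ADH cluster of alcohol dehydrogenases, with a growing score of -0.29 ± 0.10 like that of CYP3A (-0.34 ± 0.09), had -0.17 ± 0.12 in RIS. Self-contact changed by between -0.31 (SLCO1) and 0.18 (the CYP4 genes of chromosome 1), with a median of 0.07, beside 0.37 for CYP3A. By voom 33 of 818 pairs in these clusters passed, 14 higher and 19 lower in RIS, where 1.29% of all pairs passed, 0.865% higher and 0.427% lower, and by limma 0.

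Of the genes that regulate or serve CYP3A enzymes, 2 had a 240 kb window with a score below 0 in every growing library, and 1 of these was above 0 in both RIS libraries. It was NR1I2, the gene of PXR (-0.05 ± 0.04 and 0.35 ± 0.06). Its growing scores, between -0.09 and -0.01, were close to 0. Among all 120 kb bins below 0 in every growing library, 8.11% crossed in this way, and a link with the CYP3A bins was not tested. The windows of NR1I3, RXRA and HNF4A, of the P450 reductase gene POR and of the cytochrome b5 gene CYB5A were above 0 in every library, and that of CEBPA, a liver-enriched transcription factor, was below 0 in every library.

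The genes whose 240 kb windows were most like the CYP3A bins in 4 standardized measures (A/B preference in growing cells, its change, and the changes of self-contact and of contact with 480 kb on each side) were RASGEF1C and CLK4 on chromosome 5, IQSEC1 on chromosome 3, GM2A on chromosome 5 and MSX1 on chromosome 4. Their distances from the CYP3A bins were 0.619, 0.858, 0.736, 0.778 and 0.829, where the median of 15849 windows was 4.51. RASGEF1C, the nearest, had a growing A/B preference of -0.43, a change of 2.29 and a change of self-contact of 0.32. The likeness is over means of 5 libraries, and the genes were picked for it.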

How the data were processed

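The values are in-nucleus Hi-C contacts of 3 growing libraries and 2 RIS ones. The authors aligned reads to hg19, removed artefacts and duplicates (HiC-Pro and FastQC per the submitters' processing notes, with diffHic and samtools markdup per the study's methods), binned contacts at 40 kb and balanced each library by iterative correction. The deposited signal values of each library sum to 200000000. Dividing the balancing out gave whole contacts for 100% of values (within 0.05 of a whole number), and these contacts, 109967509 to 180775315 per library, set the precision, which is lowest for contacts with the flanks. Balancing forces equal totals per bin, so a gain of one contact class lowers others in the same bin.

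Contact, insulation (windows of 520 kb), compartment score (bins of 120 kb) and A/B preference were computed from the deposited signal as stated with the results, in Python 3.11.15 (numpy 2.4.6, pandas 2.3.3, scipy 1.17.1). Genes came from GENCODE on GRCh37, whose chromosome lengths match the bins except for the mitochondrion. Pairs of bins up to 2 Mb apart with a mean of at least 5 were fitted with limma 3.58.1 in R 4.3.3, on log2 of the balanced value scaled to the mean of the recovered contacts plus 0.5, after loess on abundance, with a variance trend and Benjamini-Hochberg adjustment at 5%. Both this and voom were tested on simulated data, where limma made more false calls than its nominal rate and voom did so on data with counting noise alone. The core came from a list the study made on these libraries, and the members, regions, gene lists and tests were chosen with earlier results of these data known. Genes named are the members, genes of the window, clusters and regulators of drug metabolism, and the 5 genes of most similar windows. An item of the regulator list is not reported here. Alternatives covered recovered contacts, expected values, edges, windows, libraries and the fit. Leaving libraries out of the voom fit, and the comparison with 480 kb on each side, were chosen after seeing the data. Capture Hi-C files, which cover other loci, were not used.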

Additional observations from a re-analysis of the deposited data

How the results depend on the processing

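Across 107 alternatives for 11 values of the domain the direction was kept in all, and 19 of the values without a test moved by more than the spread between libraries. The preference of the CYP3A bins minus the flanks within libraries, which has a test, went from -0.99 to -3.34 with 480 kb on each side in place of both flanks (exact sign-flip p = 0.0625 in both). Recovered contacts in place of balanced ones, with the balancing factors carried by the expected values, gave 0.33 for the self-contact of the core. Without the libraries with many duplicate reads (growing 3 and RIS 2), contact between the flanks differed by -0.50, insulation at the left edge by -0.50 and the A/B preference by 2.30. Growing 3 and RIS 2 alone gave 0.29 for the CYP3A bins with the zinc finger side, -1.12 with the left flank, -0.93 between the flanks, -0.63 for insulation at the left edge and 1.78 for the A/B preference. That insulation differed by -0.45 with windows of 200 kb and -0.62 with 800 kb, and the preference by 1.26 with partners on other autosomes and 1.35 with every bin above or below 0 as partner. The causes were not tested.

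Leaving out 1 library gave 0.27 to 0.32 for the self-contact of the core, 0.35 to 0.39 for that of the CYP3A bins, 0.15 to 0.24 with the zinc finger side, -1.04 to -0.88 with the left flank, 0.09 to 0.25 with the right flank, -0.81 to -0.56 between the flanks, -0.61 to -0.51 and 0.16 to 0.35 for insulation at the left and right edge, 1.78 to 2.30 for the A/B preference, 0.76 to 0.88 for the compartment score, and -1.22 to -0.84 for the preference of the CYP3A bins minus both flanks within libraries (smallest exact p 0.125 with 4 libraries).

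Called pairs depended on the fit. In the core voom called 23 and the limma settings 0, and voom without 1 library called 5 to 23 (9 without RIS 1, 5 without RIS 2). In the genome limma called 2, with 767 without a variance trend, 4 when scaled to the total only, 6 with a pseudocount of 2, 0 with a minimum mean of 20 and 0 to 6972 without 1 library (1342 without RIS 1, 6972 without RIS 2). Without a RIS library the lone one left is assumed to vary like the growing ones. Voom called 25307, or 1760 to 19212 without 1 library. With the replicate number as a block, limma called 1 pair, and the difference was 0.35 for the CYP3A self-contact, -0.88 with the left flank and 2.04 for the A/B preference, with no direction changed. Growing 3 has no RIS library of the same number, so these differences equal those without growing 3 and are no separate check. The numbers were not shown to pair libraries (correlations of deviations 0.006 and -0.009). Depth limits contacts with the flanks, such as 59 and 72 contacts with the far right flank and 65 and 111 with the B part of the left flank in RIS.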

Other observations

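Beyond the CYP3A genes and the bin on each side of them, the B part of the left flank was the stretch of the window whose compartment score was higher in both RIS libraries than in any growing one. The same was found at 32.1% of autosomal bins of 120 kb, so it is not unusual. Its 3 bins of 120 kb between chr7:98040001 and chr7:98400000 had scores of -0.86 ± 0.08, -1.24 ± 0.11 and -1.12 ± 0.07 in growing libraries (SD, n = 3) and of -0.28 ± 0.10, -0.65 ± 0.01 and -0.49 ± 0.02 in RIS (SD, n = 2). They stayed below 0 in every library, whereas both bins of the CYP3A genes crossed 0 (-0.27 ± 0.05 to 0.55 ± 0.09 and -0.41 ± 0.14 to 0.41 ± 0.08). The B part was drawn for its low score in these libraries and the CYP3A domain for its change, so this contrast was partly set in advance. The difference between the stretches was not tested.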
